A study of Arabidopsis thaliana with 9 samples.

Results

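The FKF1 family of blue-light F-box proteins, the CYCLING DOF FACTOR (CDF) repressors and CONSTANS (CO) form a chain that ties flowering of Arabidopsis thaliana to day length, and their transcripts were followed here in seedlings mutant for AAR2. The 8 genes, FKF1 (AT1G68050), ZTL (AT5G57360), LKP2 (AT2G18915), CDF1 (AT5G62430), CDF2 (AT5G39660), CDF3 (AT3G47500), CDF5 (AT1G69570) and CO (AT5G15840), were picked by locus code from the 22903 loci listed for each library. They were taken as a group because FKF1 tended to be higher in aar2-2 than in aar2-1, so the difference between the mutants is described below and was not tested. All 8 passed the minimum of a mean of 1 CPM (reads of a gene scaled to a common library total) over the libraries that 18838 of the loci met.

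Whole seedlings of 3 genotypes, the mutants aar2-2 and aar2-1 and the wild type, were compared at 14 days of age, with 3 biological replicates of each. All were grown on MS medium in days of 16 h light and 8 h dark, and the groups shared no other treatment or allele that the labels record. The 2 mutants carry alleles of AAR2, whose yeast counterpart acts in assembly of the U5 particle of the spliceosome. The labels give neither the lesions of the 2 alleles, nor the accession, the number of plants per sample or the hour of harvest, and the last bears on genes whose level follows the time of day.

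FKF1, ZTL and LKP2 each join a light-sensing LOV domain to an F-box and kelch repeats, and act in SCF ubiquitin ligases that mark other proteins for degradation. In the long-day afternoon FKF1 binds GIGANTEA (GI) and removes CDF proteins, which otherwise sit on the promoters of CO and FLOWERING LOCUS T (FT) and keep them off. CO protein, stable in light, then switches on FT in the leaf phloem, and FT protein travels to the shoot apex as the flowering signal. FKF1, GI and the CDF genes are themselves driven by the circadian clock, CDF transcripts being high after dawn and FKF1 and GI transcripts late in the day.

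The promoters were searched for clock motifs and Dof binding sites by sequence alone, and binding was not tested. The 300 bases before the annotated start of each gene were read from RefSeq's TAIR10.1 genome and are given 5′ to 3′ on the gene's strand. PRR5 is a clock gene whose level varied with that of FKF1 below (Pearson's r 0.878). FKF1 (chr1:25508339-25508638, plus strand) and PRR5 (chr5:8358547-8358846, minus strand) are shown with 2 clock motifs in capitals on either strand. The motifs are the evening element AAAATATCT and the CCA1-binding site AAAAATCT.
FKF1: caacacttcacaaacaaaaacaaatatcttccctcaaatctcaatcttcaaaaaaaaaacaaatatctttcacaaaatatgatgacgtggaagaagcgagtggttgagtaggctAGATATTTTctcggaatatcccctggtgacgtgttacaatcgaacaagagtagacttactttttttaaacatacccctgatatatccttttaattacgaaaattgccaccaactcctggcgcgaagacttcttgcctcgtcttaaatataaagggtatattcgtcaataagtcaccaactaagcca
PRR5: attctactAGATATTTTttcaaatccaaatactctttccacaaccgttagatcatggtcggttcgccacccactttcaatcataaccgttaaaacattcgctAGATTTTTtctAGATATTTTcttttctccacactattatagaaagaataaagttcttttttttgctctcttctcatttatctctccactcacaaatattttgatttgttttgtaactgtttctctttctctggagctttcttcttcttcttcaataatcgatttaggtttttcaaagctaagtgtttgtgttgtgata
The FKF1 window held 1 evening element, ending 178 bases before the start, and the PRR5 window held 2, ending 284 and 179 bases before it, with 1 CCA1-binding site at 191 bases. Of 27437 promoter windows of this length, 2.79% held an evening element and 7.94% a CCA1-binding site. The GI window, not shown, held neither, though GI varied more closely with FKF1 (r 0.906) than PRR5 did. Among the other members, LKP2 and CDF5 each held 1 CCA1-binding site, and CDF2 held 1 G-box (CACGTG, present in 7.09% of windows).

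CO and FT, the genes that CDF proteins bind, are shown with the 4-base core of Dof binding sites, AAAG on either strand, in capitals. CO lies at chr5:5173086-5173385 (minus strand) and FT at chr1:24331073-24331372 (plus strand), both as the windows before the gene.
CO: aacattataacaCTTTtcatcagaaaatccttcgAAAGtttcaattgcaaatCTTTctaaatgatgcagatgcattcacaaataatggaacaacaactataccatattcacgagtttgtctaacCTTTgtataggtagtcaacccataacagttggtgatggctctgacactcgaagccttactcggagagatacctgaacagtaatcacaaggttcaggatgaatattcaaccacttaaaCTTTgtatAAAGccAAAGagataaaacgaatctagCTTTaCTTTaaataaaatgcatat
FT: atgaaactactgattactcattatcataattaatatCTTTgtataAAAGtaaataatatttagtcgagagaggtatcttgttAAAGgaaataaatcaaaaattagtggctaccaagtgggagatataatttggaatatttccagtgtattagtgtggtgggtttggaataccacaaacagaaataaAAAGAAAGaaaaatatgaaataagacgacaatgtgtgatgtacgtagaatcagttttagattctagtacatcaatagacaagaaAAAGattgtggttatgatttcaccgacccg
CO had 9 matches and FT 6, against a median of 5 over all windows, of which 99.0% held at least 1, so the core alone singles out no promoter. The CDF2 window had 16 matches, and the other members had from 2 (LKP2) to 6 (CDF3).

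Libraries held from 32393347 to 35267559 reads in aar2-2, from 29164392 to 31305352 in aar2-1 and from 24471852 to 27716125 in wild type, so depth and genotype cannot be told apart. AAR2, measured first as a check of the labels, had 5.28, 4.36 and 4.11 CPM in aar2-2, 7.33, 5.49 and 5.30 CPM in aar2-1, and 7.64, 7.11 and 8.27 CPM in wild type. Its difference from wild type on the log2(CPM + 1) scale was -0.64 (SE 0.13, limma adjusted p = 0.00908) in aar2-2 and -0.31 (SE 0.13, limma adjusted p = 0.101) in aar2-1, with 8.9% of its exonic bases shared with AT1G66520 on the other strand. Leaf and root markers were present in every library, as the label seedling implies. Wild-type replicate 2 stood apart in clock genes: the morning gene CCA1 had 91.1 CPM there, against 56.3 and 56.9 CPM in the other wild-type libraries, and the evening gene TOC1 had 76.0 CPM, the lowest of all libraries. Calls that change without this library are given with their value without it.

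FKF1, the member that binds GI and removes CDF proteins, had 21.6, 21.7 and 12.4 CPM in aar2-2, 10.5, 9.60 and 7.63 CPM in aar2-1, and 27.5, 27.5 and 23.5 CPM in wild type. No library of one genotype reached into the range of another, with wild type on top and aar2-1 at the bottom, but aar2-2 replicate 3 lay closer to aar2-1 than to the other aar2-2 libraries. The mean in aar2-2, 18.6 ± 5.38 CPM, was 2.01 times that in aar2-1, 9.25 ± 1.47 CPM, and 0.709 times that in wild type, 26.2 ± 2.34 CPM (SD, n = 3 each). The aar2-1 mean was 0.353 times the wild-type mean. These values rest on 239 to 763 reads per library.

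The pairwise contrasts of FKF1 contain the difference by which it was chosen, so they are given without a test: -0.51 (SE 0.19) for aar2-2 against wild type, -1.41 (SE 0.19) for aar2-1 against wild type and 0.90 for aar2-2 against aar2-1, on the log2(CPM + 1) scale. Leaving out any 1 library kept the last value between 0.77 and 1.16. Libraries of aar2-2 lay wholly above those of aar2-1 for 13.7% of all genes tested and wholly below for 6.12%. The mean of both mutants against wild type does not depend on that difference when both mutants have equal numbers of libraries. There FKF1 fell by 0.96 on the log2(CPM + 1) scale (SE 0.17, limma adjusted p = 0.0032). The call was kept with each wild-type library left out in turn (limma adjusted p up to 0.022). It was also kept with each mutant library left out, but unequal numbers then tie this contrast to that difference.

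ZTL, which in the same way targets the clock proteins TOC1 and PRR5, was the most abundant member per length. It had 49.2, 50.3 and 45.1 CPM in aar2-2, 42.4, 53.1 and 47.1 CPM in aar2-1, and 60.3, 58.7 and 53.2 CPM in wild type. All 6 mutant libraries lay below all wild-type ones, aar2-1 replicate 2 by a narrow margin. ZTL fell by 0.26 on the log2 scale in the mean of both mutants (SE 0.08, limma adjusted p = 0.0296), with 0.0939 when wild-type replicate 2 was left out, 0.126 without replicate 1 and 0.0557 without aar2-2 replicate 3. Taken singly, it differed from wild type by -0.25 in aar2-2 (limma adjusted p = 0.0711) and by -0.27 in aar2-1 (limma adjusted p = 0.0473), and the aar2-1 call was lost in 13 of 17 alternatives (0.116 without wild-type replicate 2).

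LKP2, the third photoreceptor of the family, had 18.9, 17.8 and 16.4 CPM in aar2-2, 16.3, 16.2 and 17.4 CPM in aar2-1, and 21.7, 24.8 and 22.4 CPM in wild type. Its mutant and wild-type ranges did not overlap, while those of the 2 mutants did. LKP2 fell by 0.36 in aar2-2 (SE 0.08, limma adjusted p = 0.0128) and by 0.44 in aar2-1 (SE 0.08, limma adjusted p = 0.0044) on the log2(CPM + 1) scale, and both calls were kept in all 17 alternatives. In the annotation, 15.8% of its exonic bases are shared with the long noncoding RNA gene AT2G18917 on the other strand. No source used here says that reads were counted by strand, and reads of genes that overlap cannot then be told apart.

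**Figure D1:**
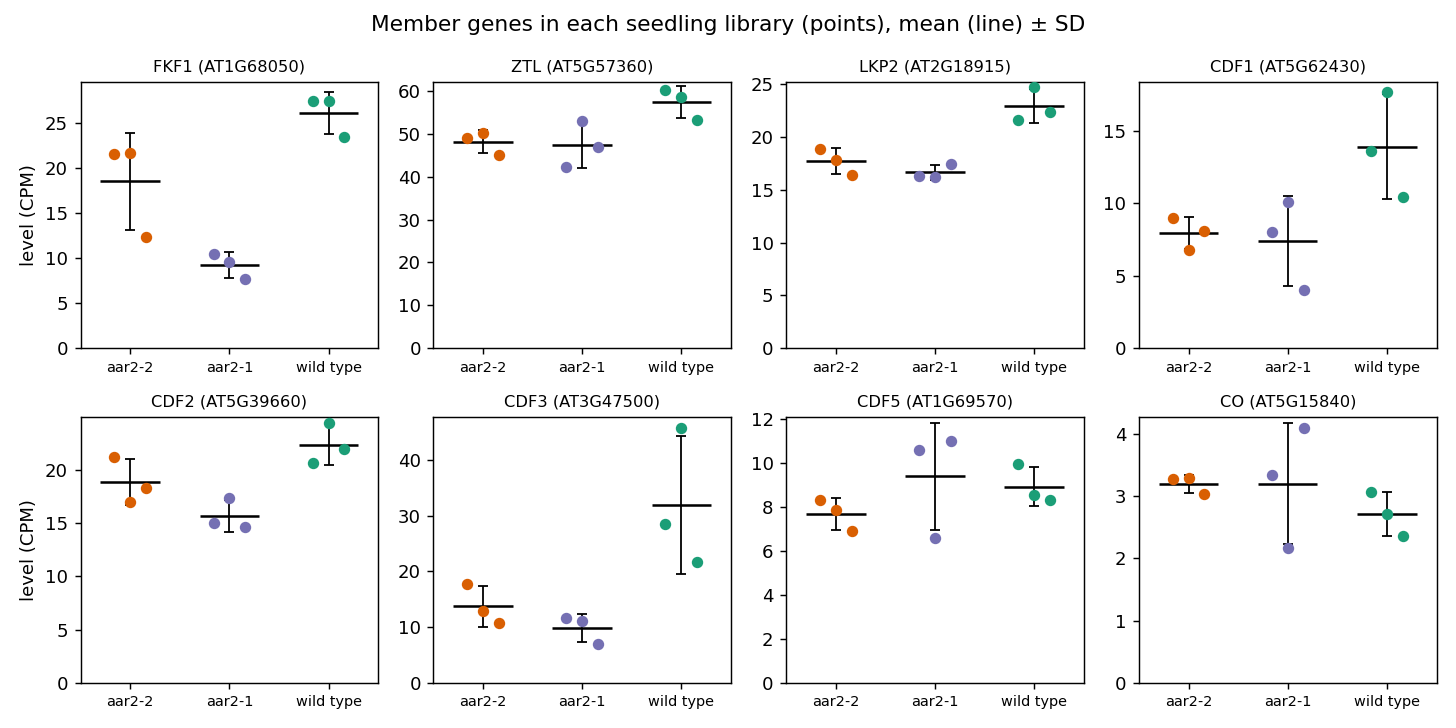
Level of each of the 8 genes in CPM (y axis, from 0, a scale of its own in each panel) in the 9 seedling libraries (points), by genotype, with the mean (line) and SD (bars, n = 3). FKF1 is split into 3 separate ranges, whereas for CO all genotypes overlap and for CDF5 aar2-1 covers the other ranges.

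The CDF proteins repress CO and FT, and CDF3 had the largest difference from wild type of the 7 members tested in single mutants. CDF3 had 17.8, 12.8 and 10.7 CPM in aar2-2, 11.6, 11.0 and 6.93 CPM in aar2-1, and 28.4, 45.8 and 21.7 CPM in wild type. All mutant libraries were below all wild-type ones, and wild-type replicate 2 was far above its 2 replicates. The mean of 13.8 ± 3.65 CPM in aar2-2 was 0.430 times, and that of 9.86 ± 2.55 CPM in aar2-1 0.308 times, the 32.0 ± 12.4 CPM of wild type (SD, n = 3 each).

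CDF3 fell by 1.12 in aar2-2 (SE 0.27, limma adjusted p = 0.0190) and by 1.57 in aar2-1 (SE 0.27, limma adjusted p = 0.0040) on the log2(CPM + 1) scale. Without wild-type replicate 2 the differences were -0.84 in aar2-2 (limma adjusted p = 0.0532) and -1.28 in aar2-1 (limma adjusted p = 0.0108). The aar2-2 call was also lost without wild-type replicate 1 (limma adjusted p = 0.0545), aar2-2 replicate 2 (0.0581) or aar2-2 replicate 3 (0.0598). The aar2-1 call was kept in all alternatives.

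CDF1, the founding member of the group and a direct target of FKF1, had 8.95, 6.74 and 8.05 CPM in aar2-2, 8.01, 10.1 and 4.02 CPM in aar2-1, and 13.6, 17.6 and 10.4 CPM in wild type. The highest mutant library, aar2-1 replicate 2, came close to the lowest wild-type one, and aar2-1 spread widely. CDF1 fell by 0.88 in aar2-1 (SE 0.27, limma adjusted p = 0.0384) on the log2 scale, while in aar2-2 the difference was -0.72 (SE 0.27, limma adjusted p = 0.0810). The aar2-1 call was lost when any of 5 libraries was left out (aar2-2 replicate 2, aar2-1 replicates 1 and 3, wild-type replicates 1 and 2), with adjusted p-values up to 0.123, the value without wild-type replicate 2. Without aar2-1 replicate 3, whose level is the lowest, that difference was -0.55.

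CDF2, which acts redundantly with CDF1, had 21.2, 17.0 and 18.3 CPM in aar2-2, 15.0, 17.4 and 14.6 CPM in aar2-1, and 20.7, 24.5 and 22.0 CPM in wild type. Only aar2-1 lay wholly below wild type, since aar2-2 replicate 1 was within the wild-type range. CDF2 fell by 0.49 in aar2-1 (SE 0.10, limma adjusted p = 0.0088), a call kept in all alternatives, and differed by -0.24 in aar2-2 (SE 0.10, limma adjusted p = 0.118) on the log2 scale. In the mean of both mutants it fell by 0.36 (limma adjusted p = 0.0135), with 0.061 without wild-type replicate 2.

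CDF5, another CDF repressor of flowering, did not follow the other CDF genes. It had 8.30, 7.85 and 6.89 CPM in aar2-2, 10.6, 6.58 and 11.0 CPM in aar2-1, and 9.93, 8.51 and 8.31 CPM in wild type, and the aar2-1 range covered wild type, while the highest aar2-2 library lay just below the lowest wild-type one. The differences from wild type were -0.19 in aar2-2 (SE 0.16, limma adjusted p = 0.423) and 0.04 in aar2-1 (SE 0.16, limma adjusted p = 0.880). This gene is the member most exposed to reads from another transcript, because 59.9% of its exonic bases are shared with the long noncoding RNA gene AT1G69572 on the other strand, whose own level was not analysed here.

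CO, the activator of FT, was the lowest member in every genotype. It had 3.27, 3.28 and 3.03 CPM in aar2-2, 3.34, 2.16 and 4.09 CPM in aar2-1, and 3.06, 2.71 and 2.36 CPM in wild type, on 63 to 128 reads. The aar2-1 libraries spanned the values of both other genotypes, and aar2-2 overlapped wild type. Its differences from wild type, 0.18 in aar2-2 (SE 0.16, limma adjusted p = 0.446) and 0.15 in aar2-1 (SE 0.16, limma adjusted p = 0.509), did not pass the test.

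The signal assigned to CO may hold reads of a second gene. AT5G15843, an uncharacterized protein-coding gene on the other strand, lies wholly within CO exons and shares 25.2% of their bases. It had 2.53, 2.67 and 2.47 CPM in aar2-2, 2.52, 1.65 and 3.45 CPM in aar2-1, and 2.37, 1.91 and 1.63 CPM in wild type. These values track CO library by library, with Pearson's r of 0.982 over the 9 libraries, the highest for CO of any gene tested, and both may hold the same reads. The 2 levels differed little: CO minus AT5G15843 came to 0.567 to 0.741 CPM in aar2-2, 0.514 to 0.818 CPM in aar2-1 and 0.695 to 0.794 CPM in wild type.

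**Figure D2:**
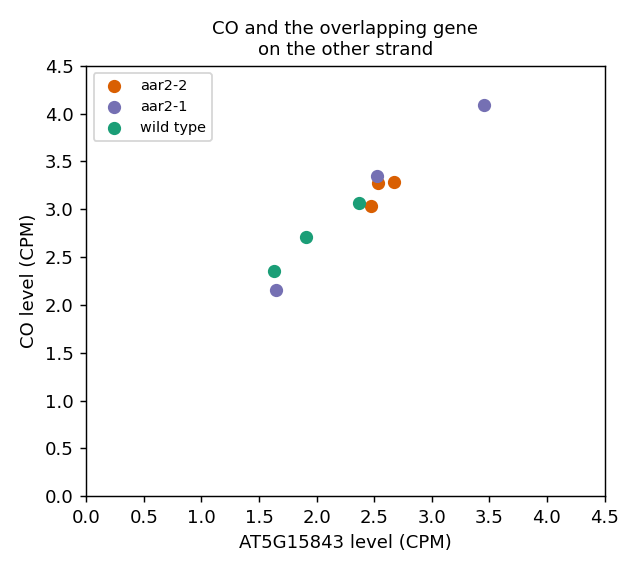
CO level against the level of AT5G15843, the gene within its exons on the other strand, both in CPM with axes from 0, with 1 point per library coloured by genotype. The points lie close to 1 line (r = 0.982, n = 9), and the genotypes overlap along it.

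Over the 7 members other than FKF1, 2 were called lower in aar2-2 (LKP2 and CDF3) and none higher, or 28.6%, where 21.5% of all genes were called in either direction and 9.40% were called lower. In aar2-1, 5 of the 7 were called lower (ZTL, LKP2, CDF1, CDF2 and CDF3) and none higher, where 25.1% of all genes were called and 13.6% were called lower and 11.5% higher. The median difference of the 7 was -0.246 in aar2-2, against 0.032 over all genes, and -0.438 in aar2-1, against -0.004. Both contrasts use the same wild-type libraries. The number of genes called lower in aar2-2 depends on the test: 1770 by limma, 2284 by edgeR and 2439 by DESeq2. The members called lower there were 2, 3 and 4 of the 7, in the same order.

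In the mean of both mutants, 6 of the 8 members fell, CDF5 and CO being the exceptions, where 30.1% of all genes were called and 14.7% were called lower and 15.4% higher. All 6 mutant libraries lay below all wild-type ones for 5 of the 8 (FKF1, ZTL, LKP2, CDF1 and CDF3), which holds for 13.7% of all genes. The aar2-2 libraries alone lay below wild type for 19.2% of all genes, and the aar2-1 libraries alone for 21.8%. Leaving out wild-type replicate 2 reduced the 6 calls to 3 (FKF1, LKP2 and CDF3), with CDF1 at a limma adjusted p of 0.119, and the median of the 8 in the full set was -0.38, against 0.015 over all genes. In whole seedlings, fewer cells that express a gene and less RNA per cell cannot be told apart.

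**Figure D3:**
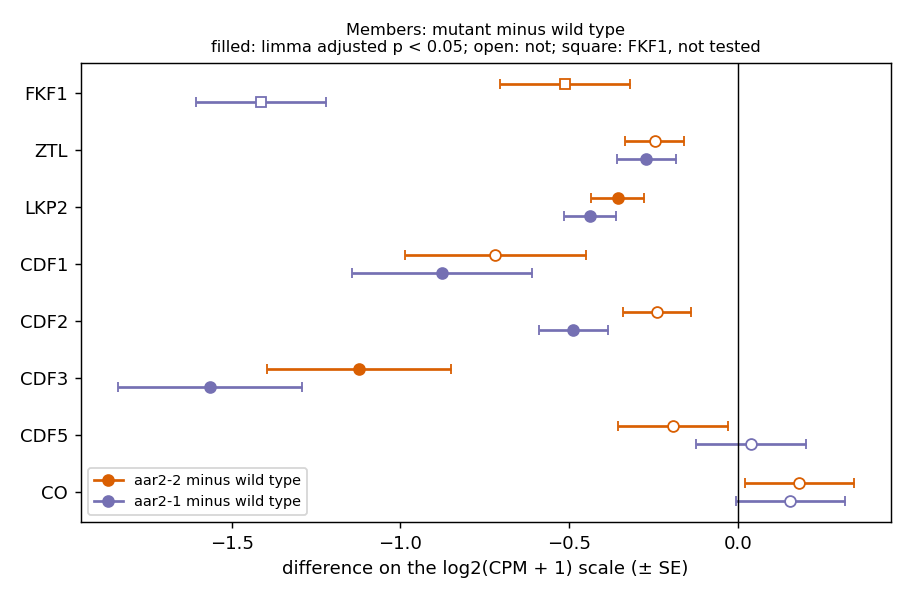
Difference from wild type of each member on the log2(CPM + 1) scale (x axis, ± SE) in aar2-2 (orange, upper) and aar2-1 (purple, lower). Filled circles passed a limma adjusted p of 0.05, open circles did not, and squares mark FKF1, which was not tested here. CDF3 lies farthest from 0 among the tested members, while CDF5 and CO lie around it.

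Levels can be compared between genes only per length. Divided by kilobases of annotated exon, ZTL led in each genotype, at 19.8 ± 1.11 CPM per kilobase in aar2-2, 19.5 ± 2.19 in aar2-1 and 23.5 ± 1.53 in wild type, though CDF3 at 16.8 ± 6.54 was within the spread of it in wild type (SD, n = 3). CO was last in each, at 1.09 ± 0.0482 CPM per kilobase in aar2-2, 1.09 ± 0.333 in aar2-1 and 0.927 ± 0.121 in wild type. FKF1 had place 2 of 8 in aar2-2, at 8.56 ± 2.48 CPM per kilobase, and place 3 in wild type, at 12.1 ± 1.08. In aar2-1 it had place 7, at 4.26 ± 0.677 CPM per kilobase. This shift between the mutants contains the difference by which FKF1 was chosen, so it is only a description. In aar2-2 the neighbours below FKF1, CDF2 at 7.78, LKP2 at 7.55 and CDF3 at 7.24, were within its SD. In aar2-1 it did not differ beyond the spread from CDF5 at 4.87 ± 1.26, CDF1 at 5.17 ± 2.16 or CDF3 at 5.19 ± 1.34 CPM per kilobase.

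Every member has 1 intron in its longest annotated transcript, as 14.7% of 18748 tested genes with a structure do (median 4 introns). Splicing itself cannot be read from these gene totals.

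FT, the flowering signal downstream of all 8 genes, rose in both mutants. It had 3.80, 3.57 and 3.18 CPM in aar2-2, 3.27, 3.12 and 3.003 CPM in aar2-1, and 1.72, 1.19 and 1.38 CPM in wild type, on 33 to 123 reads. Each mutant library was above each wild-type one, and the aar2-2 and aar2-1 ranges overlapped. FT rose by 0.90 in aar2-2 (SE 0.11, limma adjusted p = 0.0014) and by 0.77 in aar2-1 (SE 0.11, limma adjusted p = 0.0018) on the log2(CPM + 1) scale, which understates a change at this level, and its mean was 2.46 times that of wild type in aar2-2 and 2.19 times in aar2-1. Both calls were kept in all 17 alternatives.

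SOC1, a floral integrator that responds to FT, did not pass the test and differed from wild type by 0.21 in aar2-2 (limma adjusted p = 0.207) and by 0.23 in aar2-1 (limma adjusted p = 0.158). TSF, the close relative of FT, had 2 to 17 reads per library and was not tested. Floral meristem genes were low throughout, but AP1 had 0.61 to 0.99 CPM in aar2-2 and 0.58 to 1.501 CPM in aar2-1, against 0 to 0.12 CPM in wild type, where 3 reads make 0.109 CPM in the library at 0. LFY, which specifies floral meristems, rose by 0.69 in aar2-2 (limma adjusted p = 0.0197) and by 0.88 in aar2-1 (limma adjusted p = 0.0063), on 8 to 69 reads. The aar2-2 call of LFY was lost without wild-type replicate 1 (limma adjusted p = 0.0671) or 3 (0.0564).

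The summed level of the 4 flower markers (AP1, LFY, AG, AP3) was 2.44 to 2.70 CPM in aar2-2. It was 2.18 to 4.73 CPM in aar2-1 and 0.613 to 0.902 CPM in wild type. AG had no part in this difference, with overlapping ranges and means of 0.276 CPM in aar2-2, 0.289 in aar2-1 and 0.271 in wild type. Only LFY of the 4 reached the minimum for testing, with AP3 listed at 0 in 2 wild-type libraries and AP1 in 1. The summed level of the 3 phloem markers, the tissue in which CO and FT act, was 318.4 to 332.4 CPM in aar2-2, 353.9 to 361.6 CPM in aar2-1 and 361.5 to 380.9 CPM in wild type, and the 1 marker called was SUC2, lower in aar2-2. The root marker sum was 253.8 to 331.6 CPM in aar2-2, 267.2 to 296.7 CPM in aar2-1 and 436.4 to 458.8 CPM in wild type, with PYK10 called lower in both mutants, SCR and SHR in neither, and CASP1 too low to test. The leaf marker sum was 42801 to 49458 CPM in aar2-2, 45777 to 47679 CPM in aar2-1 and 44348 to 52296 CPM in wild type. Of the 4 leaf markers, CAB2 (limma adjusted p = 0.0105) and CAB1 (0.0455) fell in aar2-2, by 1.03 and 0.52 on the log2 scale, and 0 of the 4 passed in aar2-1. Both were highest in wild-type replicate 2, without which the adjusted p-values were 0.0243 for CAB2 and 0.122 for CAB1, and the CAB1 call was lost in 12 of 17 alternatives. RBCS1A was higher in all mutant than in all wild-type libraries and did not pass the test. The part of these tissues in the members' differences was not tested.

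Of 40 further genes of the photoperiod pathway, 37 could be tested. In aar2-2, 4 rose (FT, PHYB, SPA4 and HOS1) and 3 fell (COL2, COL5 and PHYA), 18.9% in all, below the 21.5% of all genes. In aar2-1, 2 rose (FT and CRY1) and 6 fell (GI, COL2, COL5, TEM1, FBH4 and NF-YB3), where 25.1% of all genes were called. The list median was -0.053 in aar2-2 and -0.048 in aar2-1, where those of all genes were 0.032 and -0.004.

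GI, the protein partner of FKF1 that is needed for its action on CDF proteins, had 40.8, 41.8 and 25.6 CPM in aar2-2, 31.8, 20.5 and 19.9 CPM in aar2-1, and 37.6, 44.4 and 35.7 CPM in wild type. Replicate 3 was the lowest library of each genotype for GI, and also for FKF1, PRR5 and CDF3. The drop was largest in aar2-2 for GI. What the libraries numbered 3 have in common was not tested. GI fell by 0.71 in aar2-1 (SE 0.21, limma adjusted p = 0.0336) and differed by -0.14 in aar2-2 (SE 0.21, limma adjusted p = 0.651). The aar2-1 call was lost without any 1 of the wild-type libraries or without aar2-1 replicate 2 or 3, with adjusted p-values up to 0.102, the value without wild-type replicate 2. The ratio of FKF1 to GI was 0.484 to 0.529 in aar2-2, 0.330 to 0.469 in aar2-1 and 0.620 to 0.733 in wild type. As a ratio of the FKF1 values by which the genes were chosen, it is given as a description.

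**Figure D4:**
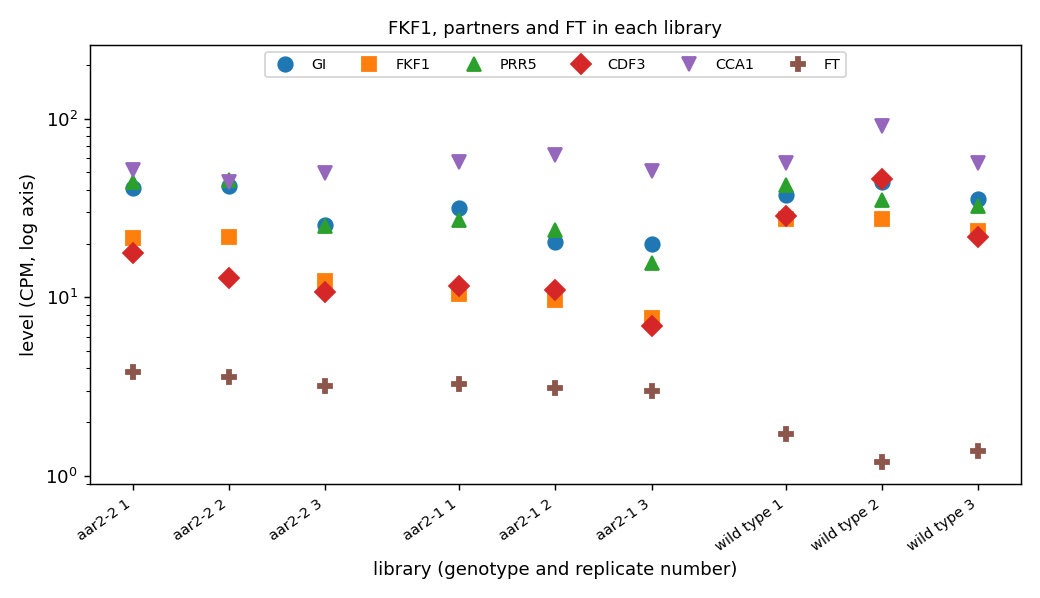
Levels in CPM (y axis, log scale) of FKF1, GI, PRR5, CDF3, CCA1 and FT in each of the 9 libraries (x axis). FKF1, GI and PRR5 are all low in aar2-2 replicate 3 and in aar2-1. Within each genotype, FKF1, GI, PRR5 and CDF3 are lowest in replicate 3. CCA1 and CDF3 peak in wild-type replicate 2, and FT is lowest in the 3 wild-type libraries.

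Among the CO relatives, COL2 fell by 0.78 in aar2-2 (SE 0.16, limma adjusted p = 0.0093) and by 0.53 in aar2-1 (SE 0.16, limma adjusted p = 0.0338), and COL5, which can promote FT when overexpressed, fell by 0.82 in aar2-2 (SE 0.15, limma adjusted p = 0.0070) and by 0.54 in aar2-1 (SE 0.15, limma adjusted p = 0.0294). Both were highest in wild-type replicate 2, at 53.2 CPM for COL2 and 123.0 CPM for COL5. Without it, the aar2-1 differences were -0.32 for COL2 (limma adjusted p = 0.0517) and -0.35 for COL5 (limma adjusted p = 0.0688), and the aar2-2 calls were kept. The COL2 call in aar2-1 was also lost without aar2-1 replicate 1 or 3 or with only the groups compared, and the COL5 call without any 1 of the aar2-1 libraries or wild-type replicate 1. COL2 shares 22.4% of its exonic bases with AT3G02390 on the other strand. COL1, the gene 3005 bases upstream of CO on the same strand, differed by -0.30 in aar2-2 (limma adjusted p = 0.155) and by -0.07 in aar2-1 (limma adjusted p = 0.753). For COL1, 100% of the exonic bases are shared with the long noncoding RNA gene AT5G15845 on the other strand.

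TEM1, a repressor of FT that counteracts CO, fell by 0.63 in aar2-1 (SE 0.14, limma adjusted p = 0.0096) and differed by -0.08 in aar2-2 (limma adjusted p = 0.710). FBH4, a bHLH activator of CO, fell by 0.40 in aar2-1 (SE 0.08, limma adjusted p = 0.0070), with 34.1% of its exonic bases shared with a long noncoding RNA gene on the other strand. NF-YB3, a subunit of the complex with which CO acts on FT, fell by 0.33 in aar2-1 (SE 0.08, limma adjusted p = 0.0143). In aar2-2 NF-YB3 differed by -0.21 (limma adjusted p = 0.0776) and FBH4 by -0.15 (0.205). PHYB, the red-light receptor that promotes breakdown of CO in the morning, rose by 0.35 in aar2-2 (SE 0.09, limma adjusted p = 0.0216). There SPA4, a partner of COP1 in CO degradation, rose by 0.44 (SE 0.13, limma adjusted p = 0.0377). In aar2-1 PHYB differed by 0.25 (limma adjusted p = 0.0609), SPA4 by 0.16 (0.373) and HOS1 by 0.15 (0.109). For PHYB and HOS1 all 6 mutant libraries lay above all wild-type ones, as for 13.2% of all genes. For NF-YB3 all 6 lay below, as for 13.7%. SPA4 in aar2-1 and FBH4 in aar2-2 overlapped wild type. PHYB in aar2-1 gained a call in 4 of 17 alternatives, as NF-YB3 did in aar2-2. In aar2-2 the PHYB call was lost in 5 and the SPA4 call in 8 of 17 alternatives. Without wild-type replicate 2 the limma adjusted p-values were 0.0597 for PHYB and 0.0933 for SPA4. Of the other calls counted above, that of HOS1 was lost in 10 alternatives (0.118 without wild-type replicate 2), that of PHYA in 5 (0.0838 without that library), that of CRY1 in 2 and that of NF-YB3 in 1 (0.0634 without wild-type replicate 1).

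**Figure D5:**
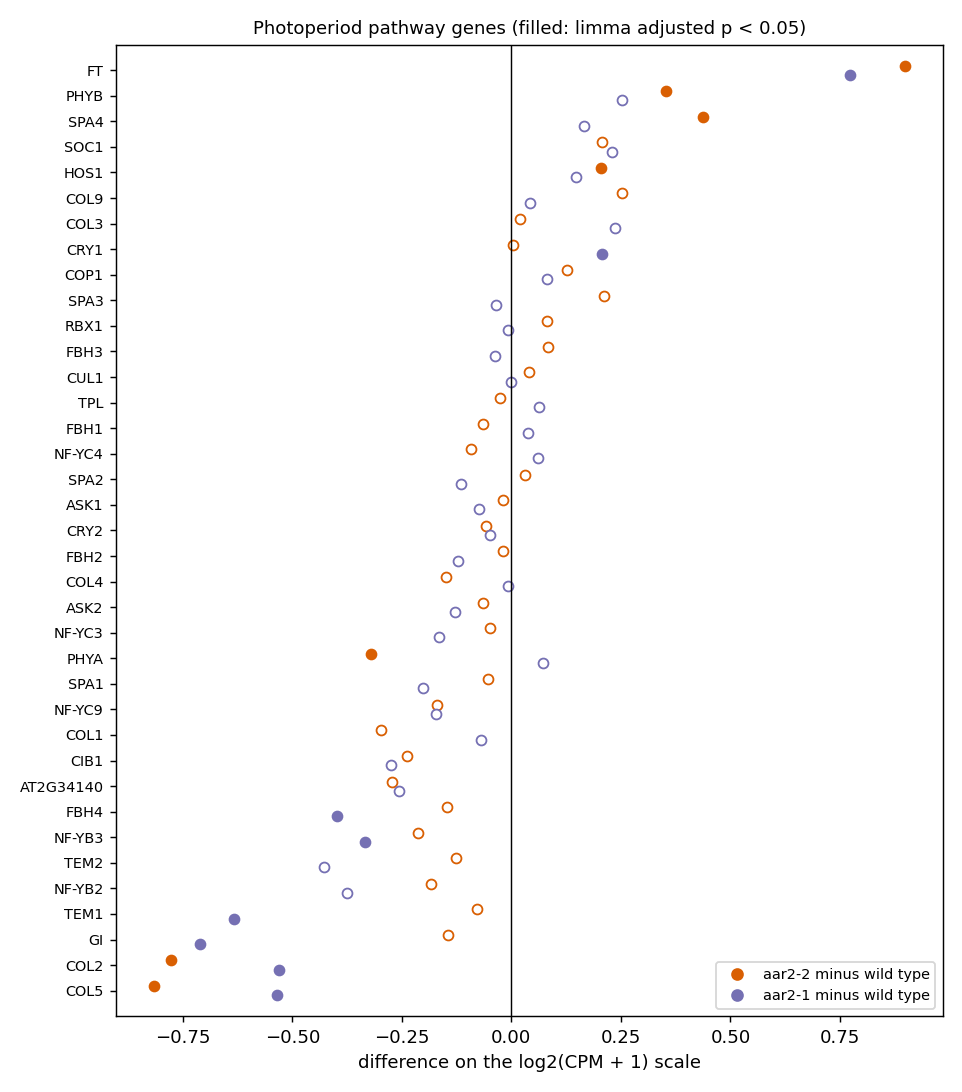
Difference from wild type on the log2(CPM + 1) scale (x axis) of the 37 tested genes of the photoperiod list (rows) in aar2-2 (orange) and aar2-1 (purple). Filled points passed a limma adjusted p of 0.05. FT is the highest in both mutants, COL2 and COL5 are the lowest in aar2-2, GI and TEM1 are the lowest in aar2-1, and most points are open.

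Of the 10 clock genes behind the daily rhythm of these transcripts, 1 fell and 1 rose in aar2-2. In aar2-1, 3 fell and none rose, and in the mean of both mutants 4 fell and none rose. Over all genes, 21.5% were called in aar2-2, 25.1% in aar2-1 and 30.1% in the mean of both mutants. Those called lower were 9.40%, 13.6% and 14.7% of all genes, in the same order. Whether the clock list differs from all genes was not tested. LHY fell by 0.65 in aar2-2 (SE 0.13, limma adjusted p = 0.0093), and by 0.48 without wild-type replicate 2 (limma adjusted p = 0.0142). In aar2-1 LHY differed by -0.33 (limma adjusted p = 0.0874). PRR3 rose by 0.39 in aar2-2 (SE 0.11, limma adjusted p = 0.0286) and differed by -0.09 in aar2-1 (0.578). The PRR3 call was lost without aar2-2 replicate 1 or 2 or wild-type replicate 2 or 3, and the difference was 0.28 without wild-type replicate 2 (limma adjusted p = 0.0798). In aar2-1, PRR9 fell by 1.26 (SE 0.26, limma adjusted p = 0.0088). PRR9 had 5.59 CPM in wild-type replicate 2, against 2.25 and 2.29 CPM in the other wild-type libraries. Without that library its aar2-1 difference was -0.92 (limma adjusted p = 0.0124). In aar2-2 PRR9 differed by -0.77 (limma adjusted p = 0.0617), and by -0.43 without that library (0.144). All 6 mutant libraries of PRR9 lay below all wild-type ones, as for 13.7% of all genes. ELF4 fell in aar2-1 by 0.61 (SE 0.14, limma adjusted p = 0.0114) and differed by -0.22 in aar2-2 (0.261). LUX fell in aar2-1 by 0.31 (SE 0.09, limma adjusted p = 0.0375), with 17.8% of its exonic bases shared with AT3G46650. The LUX call in aar2-1 was lost in 6 of 17 alternatives, without aar2-2 replicate 2, aar2-1 replicate 1 or 2, or wild-type replicate 1 or 3 among them, with limma adjusted p-values up to 0.139. In aar2-2 LUX differed by -0.28 (limma adjusted p = 0.0557), and by -0.38 without wild-type replicate 2 (limma adjusted p = 0.0203). TOC1, a target of ZTL, differed by 0.24 in aar2-2 (limma adjusted p = 0.144) and by 0.11 in aar2-1 (limma adjusted p = 0.477). The part of the clock, or of the hour of harvest, in the members' differences was not tested.

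PRR5, the other ZTL target, resembled FKF1 in part, in a pattern that contains the difference by which FKF1 was chosen. PRR5 had 44.1, 45.3 and 25.1 CPM in aar2-2, 27.2, 23.8 and 15.5 CPM in aar2-1, and 42.8, 34.9 and 32.3 CPM in wild type. Like FKF1 and GI, it was low in aar2-2 replicate 3 and in all aar2-1 libraries, and lowest in replicate 3 within each genotype. Unlike them, it was above the wild-type range in aar2-2 replicates 1 and 2. The differences from wild type were 0.02 in aar2-2 (SE 0.24, limma adjusted p = 0.962) and -0.73 in aar2-1 (SE 0.24, limma adjusted p = 0.0514). Of the promoter windows of the 3 genes, those of FKF1 and PRR5 held the evening element, and that of GI held neither clock motif.

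Across the 9 libraries, which share 3 genotypes, FKF1 varied with GI (Pearson's r 0.906), PRR5 (0.878) and CDF3 (0.871), less with CCA1 (0.265). CDF3 varied with CDF1 and LKP2 (r 0.909 with each), and LKP2 (-0.889) and CDF3 (-0.788) ran against FT. CDF5 had an r of -0.076 with FKF1 and -0.004 with CDF3. These are descriptions on the log2(CPM + 1) scale, with no test, since the points share genotypes and libraries are few. The r values of FKF1 contain the difference between the mutants by which it was chosen. The share of all genes that reach such r values is not given here. Replicate 3 was the lowest library of each genotype for FKF1, GI, PRR5 and CDF3, and this shared order enters their r values.

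The 5 tested genes whose pattern was most like that of FKF1 over the 9 libraries were AT2G39020, annotated as an acyl-CoA N-acyltransferase family member (r 0.986), the aspartyl protease family gene AT3G61820 (0.978), the oleosin-B3-like gene AT1G13930 (0.977), MOT1 (AT2G25680), a molybdate transporter (0.976), and the C2H2 zinc finger gene AT2G29660 (0.975). MOT1 had 1.73 to 2.96 CPM in aar2-2, 0.479 to 1.19 CPM in aar2-1 and 4.26 to 4.68 CPM in wild type. That is the order of FKF1, by whose pattern MOT1 was picked, so it is no separate finding. The 3 genes most opposed were CSLA03, a cellulose synthase-like gene (r -0.986), the receptor-like kinase gene CRK42 (-0.983) and the pectin lyase-like gene AT3G06770 (-0.976). CRK42 had 11.7 to 16.1 CPM in aar2-2, 20.3 to 26.2 CPM in aar2-1 and 10.2 to 11.0 CPM in wild type.

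For the other members, the single most correlated gene was AT5G49555, an oxidoreductase family gene, for ZTL (r 0.968), AT1G14430, a glyoxal oxidase-related gene, for LKP2 (0.979), the sirtuin gene SRT2 for CDF1 (0.969), NIG1, annotated as a calcium-binding transcription factor, for CDF2 (0.973), AT3G09450, of the fusaric acid resistance family, for CDF3 (0.988), and the mannosidase gene MNS3 for CDF5 (0.899).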

How the data were processed

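Messenger RNA of 9 whole-seedling samples was sequenced from NEBNext Ultra II RNA libraries, per the labels' protocols. The authors deposited 1 table of CPM values per library; the submitters' processing notes name TAIR10, featureCounts 1.64 and DESeq2, while the aligner, annotation, strand setting and gene filter are not given in the sources used here. Between 99.9956% and 100% of each library's values were whole numbers of reads to within 0.05 read. Groups and replicate numbers came from the titles; where replicates were not separate cultures, p-values measure only the spread between these samples. The floor of 3 reads covers counting error only, while SDs and SEs measure the spread between libraries.

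Differences were fitted with limma 3.58.1 (R 4.3.3; lmFit, eBayes with trend) on log2(CPM + 1) for the 18838 genes that averaged 1 CPM or more, all 9 libraries in 1 fit with 3 group means. The Benjamini-Hochberg adjusted p had to be under 0.05. A pseudocount of 1 understates changes of low genes. On the recovered reads, edgeR 4.0.16 (quasi-likelihood) called 4225 genes in aar2-2 and 4860 in aar2-1, DESeq2 1.42.0 called 4572 in aar2-2 and 5183 in aar2-1, and limma 4046 in aar2-2 and 4732 in aar2-1. The share of calls that were higher was 56.3% by limma and 45.9% by edgeR in aar2-2. The fit was tested on simulated data.

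The 8 members and all gene lists were chosen with earlier results of these data known. Named were the members, AAR2, genes overlapping members, the partners and targets GI, FT, TSF, SOC1, COL1, COL2, TOC1 and PRR5, up to 6 further called genes per list by size, and the genes most correlated with each member; PHYA, HOS1, CRY1 and the flower, phloem and root genes were named to complete counts. Structures, overlaps and promoters are from RefSeq's TAIR10.1 annotation, whose coordinates are not in the deposited tables. The alternatives were a replicate block, no filter, quantile and TMM scaling, a pseudocount of 0.1, only the groups compared, edgeR, DESeq2, and each library left out in turn.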

Additional observations from a re-analysis of the deposited data

How the results depend on the processing

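Of 1278 alternative values of 76 gene results, 1146 stayed on their side of the threshold, 99 lost and 33 gained a call. A called value changed sign in 0 of them, while 25 values of 10 results that passed the test neither before nor after did so, among them CDF5 and TOC1 in aar2-1 and GI in aar2-2. Members lower in aar2-2 numbered 2, and 4 with only the groups compared in the fit or with DESeq2, and 1 to 3 with each library left out. In aar2-1 the number was 5, and 3 with only the groups compared, and 3 to 5 with each library left out. For the mean of both mutants it was 6, and 3 to 6 with each library left out, lowest without wild-type replicate 2; a fit with only the groups compared equals the full one there. The pathway calls were 7 in aar2-2, 3 to 8 with each library left out (3 without aar2-2 replicate 1 or 3 or wild-type replicate 2 or 3), and 8 in aar2-1, 4 to 9 with each left out (4 without wild-type replicate 1).

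Same-numbered libraries did not deviate together throughout (correlations from -0.191 to 0.518), so the numbers were not taken as pairs. The correlations had both signs for replicates 1 and 2. For replicate 3 all were positive: 0.518 between the mutants, 0.263 for aar2-2 and wild type, and 0.22 for aar2-1 and wild type. Replicate 3 was also the lowest library of each genotype for FKF1, GI, PRR5 and CDF3. With the replicate block, the member calls were 3 in aar2-2, 5 in aar2-1 and 6 for the mean of both, and the pathway calls 5 and 10. Under it CDF1 in aar2-2 (limma adjusted p = 0.0411), PRR9 in aar2-2 (0.0237) and PRR5 in aar2-1 (0.0034) gained a call, and SPA4 (0.0509), HOS1 (0.0668) and CAB1 (0.0685) in aar2-2 lost it. For FKF1 in the mean of both mutants, the block gave a limma adjusted p of 0.00053, against 0.0032 in the main fit. The causes of these changes were not tested. Depth limits genes with few reads, such as CO and FT, and more so LFY, PRR9 and the untested TSF and AP1.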
